A study of Mus musculus with 16 samples.

Results

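HSCs that carry the integrin MAC-1 4 weeks after transplantation (4 week MAC-1+) were compared with the HSCs that carry little of it in undisturbed mice (SS MAC-1low). The samples were chosen by their labels: 3 libraries of each population, 6 of the 16 libraries of the series, and every gene of the table was considered. The SS MAC-1low HSCs came from untreated wild type B6.SJL mice. The 4 week MAC-1+ HSCs were of the same strain and genotype, and came from recipients that had been given 900 cGy and 8000 LSK cells. All were sorted as live LSK SLAM cells, lineage negative, cKit+, Sca1+, CD48- and CD150+, and the other 10 libraries were 3 SS MAC-1-, 3 4 week MAC-1- and 4 4 week MAC-1low. Both the state of the mice and the level of MAC-1 differ between the populations compared, and in this comparison their parts cannot be told apart. The labels give no sort or sequencing day, so a batch that went with either state cannot be told apart from it. Nothing says that the replicates came from separate mice, so a p-value here measures the spread between libraries.

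HSCs sit at the top of blood formation and are mostly out of cycle in the undisturbed marrow. After transplantation they divide to refill the marrow and then return towards quiescence. MAC-1 is a beta-2 integrin of myeloid cells made of CD11b (Itgam) and CD18 (Itgb2), through which leukocytes bind ligands on vessel walls and in the matrix. Quiescent HSCs are known for low levels of cell cycle, ribosome and respiration genes, and interferon and immediate-early genes are known to respond to signals from outside the cell.

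The 6 libraries held 14675234 to 23277130 counts and 15259 to 16675 genes with at least 1 count. Values are CPM, counts relative to the library's total as scaled by TMM factors, and 13661 genes that passed edgeR's filter on low counts were tested. In the 4 week MAC-1+ libraries 57.9% to 59.2% of the counts on tested genes lay on genes shorter than the median, against 61.5% to 64.4% in SS MAC-1low. Genes richer in GC than the median took 25.2% to 31.9% and 36.5% to 38.7% of the counts. The populations did not overlap in either measure. Mitochondrial genes took 7.02% to 9.62% of counts in 4 week MAC-1+ and 3.96% to 6.24% in SS MAC-1low.

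The MAC-1 subunits were low in every library and neither passed the test. Itgam (chromosome 7, 128062640 to 128118491, GRCm38) was at 8.31, 30.0 and 3.80 CPM in the 4 week MAC-1+ libraries and at 1.57, 0.895 and 0.773 CPM in SS MAC-1low. All 4 week MAC-1+ libraries were above all SS MAC-1low libraries, but the log2 fold change of 3.70 had an SE of 2.15 (adjusted p = 0.522). In sorted bulk samples fewer cells with a transcript and less of it per cell cannot be told apart. Itgb2 was at 8.55, 15.2 and 15.9 CPM against 36.2, 1.01 and 22.9 CPM. Its populations overlapped (log2 fold change -0.60, SE 1.38, adjusted p = 0.945), and the value turned positive in limma-voom and without SS MAC-1low replicate 1. Of the 10 tested beta-2 integrin and ligand genes 0 passed by edgeR, 2 of them had an unadjusted p below 0.05, and the list's median log2 fold change was 0.26.

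Between 4 week MAC-1+ and SS MAC-1low HSCs 75 genes were higher and 64 lower, past an adjusted p of 0.1 and with a fold change of more than 1 on the log2 scale either way. That is 0.549% and 0.468% of the genes tested. The higher genes were led by Fos, Plac8, Spata6, Hist1h2bc and Wfdc17, and the lower by Uqcc2, Mrps28, Snrpd2, Dynll1 and Siva1. Their median log2 fold changes were 1.59 and -1.39, and 74 of the 75 and 61 of the 64 had no overlap between the populations. Of all tested genes 7.71% were higher and 8.56% lower without overlap, and since overlap and calls come from the same libraries nothing further is read from these counts. The count rested on few libraries: it was 6 without SS MAC-1low replicate 2, 47 to 75 without any other library, and 1 when only the 6 libraries were fitted. Of the 139 genes 4 stayed past an adjusted p of 0.1 without SS MAC-1low replicate 2, namely Fos, Plac8, Uqcc2 and 2010320M18Rik, and these also stayed without each other library. Leaving out SS MAC-1low replicate 1 or 3 kept 43 and 48 of them. For the 4 week MAC-1+ libraries the numbers kept were 33, 34 and 47. Every other gene given below as passing between these populations except Uqcrq, which fell by less than the fold threshold, therefore lost its call without SS MAC-1low replicate 2. Of these, Pf4, Mmrn1, Gimap6, H2-Aa, Cd63, Hbb-bt, Ifi203, Ndufa2, Ndufb8 and Atp5o failed in each of the 6 fits without a library. The called genes differed in length and base composition. The higher genes had a median exon length of 5616 bases and 43.9% GC, the lower ones 2065 bases and 53.3%, and all tested genes 3976 bases and 49.0%. With an offset for GC content and length 30 genes were higher and 23 lower, 46 of them among the 139. Of the genes given below as passing, Banf1, Fkbp2, Ndufa11, Etfb, Ndufa2, Ndufa8, Ndufb8, Atp5o, Gmnn, Srm, Mecom, Hoxa9, Pf4, Gimap6, H2-Aa, Cd63, Iigp1, Ddx60, Ifi203 and S100a9 failed with the offset (adjusted p from 0.105 to 0.380). DESeq2, which the submitters' notes name, called 571 higher and 495 lower. On simulated counts it also called many genes that had not been changed, more than edgeR did. Those counts were drawn with edgeR's own estimates of spread, so they cannot decide which count is better, and neither is read as such.

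**Figure D1:**
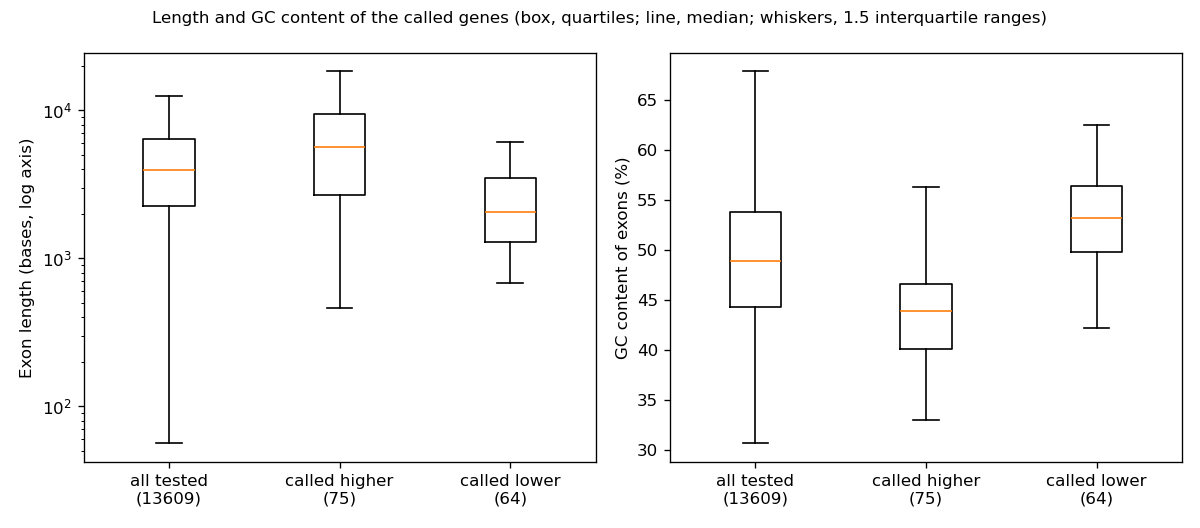
Exon length in bases (log axis) and GC content of exons in percent for the 13609 of 13661 tested genes with an annotation, the 75 called higher and the 64 called lower in 4 week MAC-1+ HSCs. Boxes span the quartiles with the median as a line, and the higher genes sit at longer lengths and lower GC content than the lower genes.

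**Figure D2:**
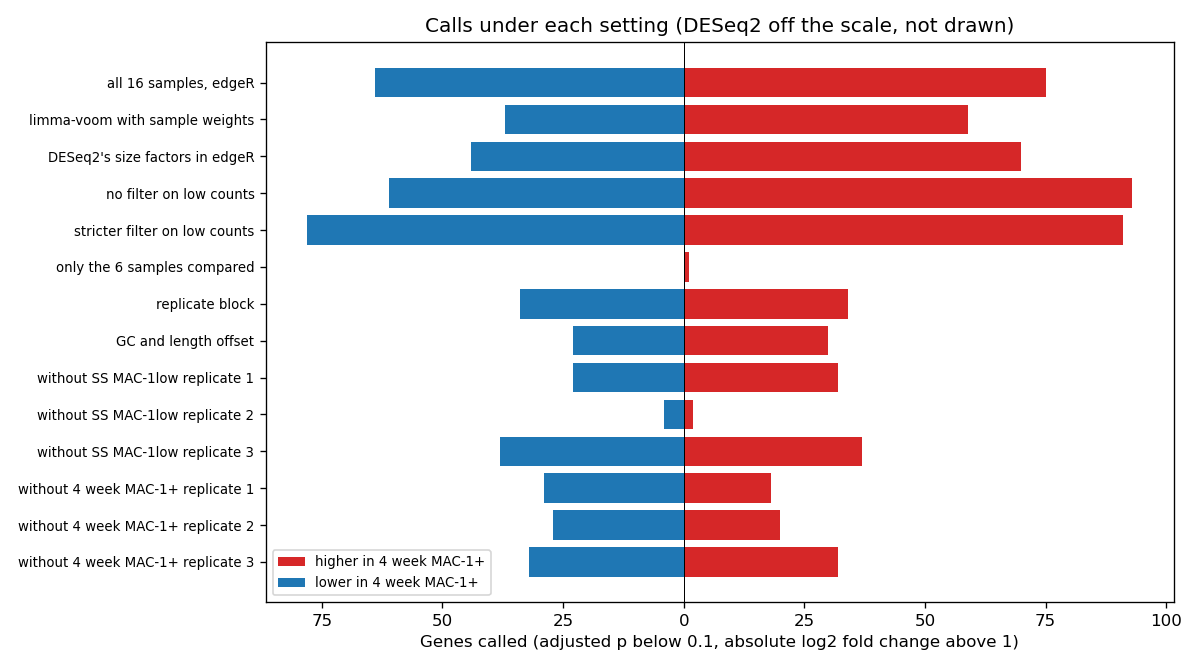
Number of genes called higher (right) and lower (left) under each setting, past both thresholds. The first bar is the fit of all 16 samples with 75 and 64 genes, and the bars for the 6 samples alone and for leaving out SS MAC-1low replicate 2 are the shortest.

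Fos, the immediate-early partner of Jun in the AP-1 factor, had the smallest p (chromosome 12, 85473890 to 85477273, GRCm38). It was at 1721, 1941 and 1848 CPM in 4 week MAC-1+ and at 837, 761 and 687 CPM in SS MAC-1low. Every 4 week MAC-1+ library was above every other one of the comparison, by 2.41-fold (log2 fold change 1.27, SE 0.16, adjusted p = 0.00839). Egr1 and Jun, further immediate-early factors, rose by 1.30 (SE 0.30, adjusted p = 0.0797) and 1.03 (SE 0.26, adjusted p = 0.0971) on the log2 scale. Jun was at 175, 273.5 and 282 CPM against 107, 99.6 and 151 CPM. Of the 27 tested immediate-early genes 3 passed, all higher. On adjusted p alone 0.586% of all tested genes were higher and 0.834% lower, which is the background to the count of every list given here. The median of the list was 0.84 where that of all genes was -0.01. Dusp1, a phosphatase that dampens MAP kinases, was at 696, 926 and 1143 CPM against 581, 438 and 540 CPM and did not pass (adjusted p = 0.120). Without 4 week MAC-1+ replicate 3 only 1 of the 27 passed, and with the offset 4 did.

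**Figure D3:**
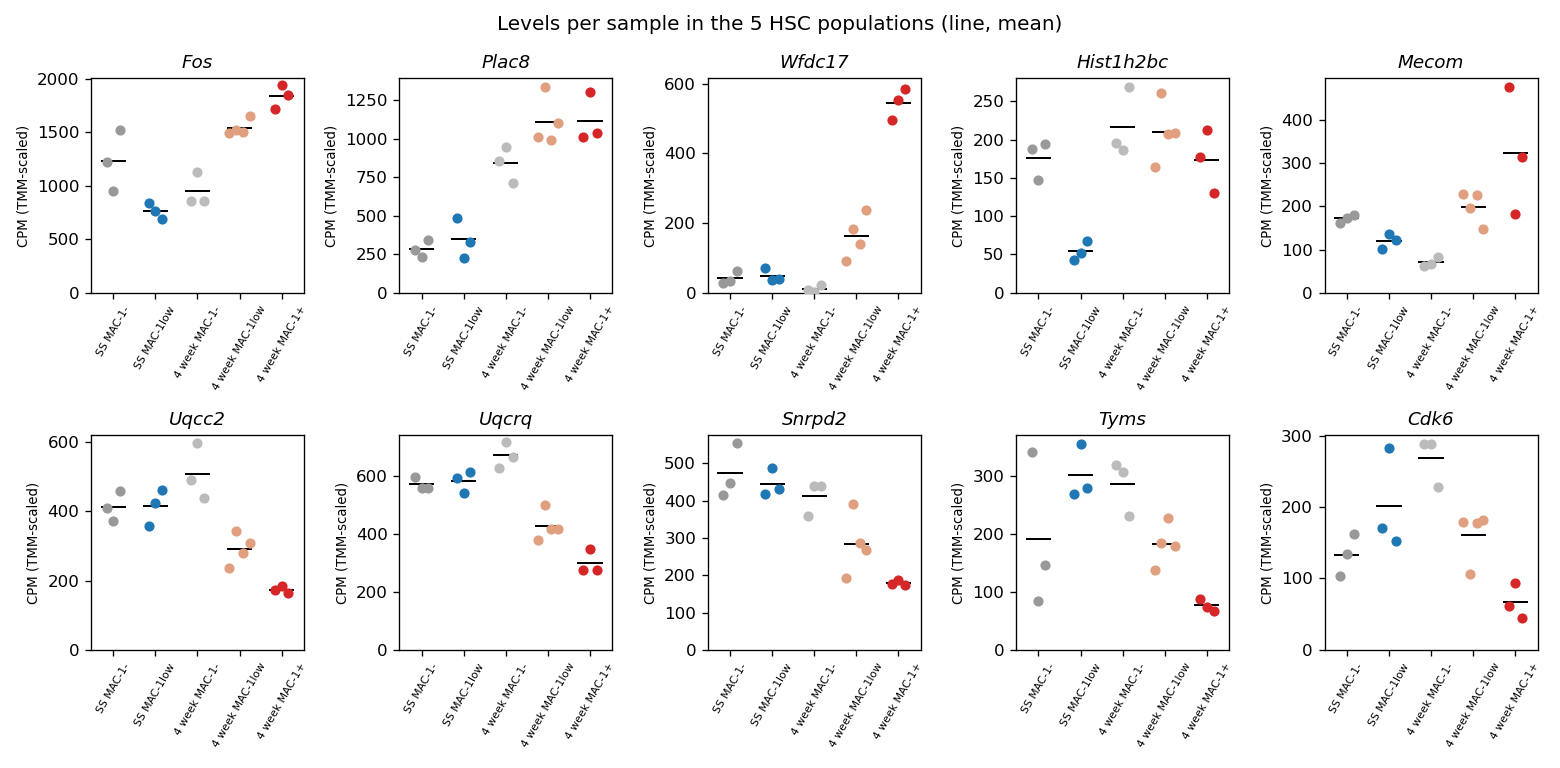
TMM-scaled CPM per library of 10 genes in the 5 HSC populations, each point a library and each line the mean. Fos, Plac8, Wfdc17, Hist1h2bc and Mecom are higher in 4 week MAC-1+ than in SS MAC-1low, and Uqcc2, Uqcrq, Snrpd2, Tyms and Cdk6 are lower.

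Plac8, a small protein of myeloid and lymphoid progenitors, was at 1009, 1304 and 1039 CPM against 485, 227 and 331 CPM (log2 fold change 1.69, SE 0.24, adjusted p = 0.0177). It was also higher 4 weeks after transplantation in the libraries that this comparison did not use. Its log2 fold change was 1.97 between 4 week MAC-1low and SS MAC-1- (adjusted p = 0.00388) and 1.57 between 4 week MAC-1- and SS MAC-1- (adjusted p = 0.0142). These last comparisons share the SS MAC-1- libraries. Hist1h2bc, a core histone gene, was at 177, 213 and 130 CPM against 42.3, 52.2 and 67.8 CPM. Here SS MAC-1low stood apart, since the mean was 176 CPM in SS MAC-1-, 217 CPM in 4 week MAC-1- and 210 CPM in 4 week MAC-1low. Wfdc17, a secreted small protein of the WAP family, was at 496, 554.5 and 586 CPM against 70.0, 37.7 and 40.5 CPM, an 11.04-fold difference (adjusted p = 0.0299), and it passed under every alternative but leaving out SS MAC-1low replicate 2. Spata6, Epsti1, Arfgef1, Yipf3, Ubl3 and Clk1 complete the leading higher genes, with log2 fold changes from 1.33 to 6.53. Yipf3 was at 0.209, 0 and 0.412 CPM in SS MAC-1low and at 28.7, 18.7 and 12.2 CPM in 4 week MAC-1+, while the other populations averaged 15.2 to 22.6 CPM.

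Interferon-stimulated genes include GTPases, antiviral enzymes and sensors that cells switch on after interferon binds its receptor. Of the 40 in the list, all tested, 1 passed: Iigp1, a GTPase that attacks vacuoles of parasites, at 340, 323 and 521 CPM against 95.3, 19.0 and 103 CPM (log2 fold change 2.44, SE 0.52, adjusted p = 0.0581). It failed with the offset (adjusted p = 0.124) and in 5 of the 6 fits without a library. With Iigp1 included, 16 of the 40 had an unadjusted p below 0.05, and all 16 were higher in 4 week MAC-1+, where 5.75% of all tested genes were. The median log2 fold change of the list was 1.05, and 30 of the 40 values were positive. Oasl2 was at 124, 64.2 and 107 CPM against 7.04, 36.0 and 25.5 CPM (adjusted p = 0.169), and Gbp7, a guanylate-binding protein, at 554, 418.5 and 263 CPM against 244, 151 and 188 CPM (adjusted p = 0.172). Ifitm3, among the most abundant of the HSC genes, was at 2148, 2114 and 1796 CPM against 2514, 1874 and 2489 CPM and its populations overlapped. Called genes outside the list include Ddx60, an RNA helicase, at 114, 190 and 70.7 CPM against 27.2, 34.96 and 21.6 CPM, and Ifi203, a DNA-binding protein of the same gene family as Ifi204, at 765, 633 and 786 CPM against 383, 179 and 375.5 CPM.

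The promoters of Ddx60, Ifi203 and Ifitm3 are shown because the first pair belongs to genes called higher and the third to an abundant gene that was not. Each runs from 250 bases before to 50 after the start in RefSeq (GRCm38.p6), 5′ to 3′ on the gene's strand. Capitals mark the core of the interferon-stimulated response element, GAAANNGAAA, or TTTCNNTTTC on the other strand.
Ddx60, chr8:61927837-61928136, + strand: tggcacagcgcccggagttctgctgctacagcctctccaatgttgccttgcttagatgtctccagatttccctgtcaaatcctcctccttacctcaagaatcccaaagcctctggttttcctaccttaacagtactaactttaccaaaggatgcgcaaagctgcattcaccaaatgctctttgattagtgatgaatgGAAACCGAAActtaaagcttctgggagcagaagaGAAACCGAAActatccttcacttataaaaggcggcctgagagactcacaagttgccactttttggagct
Ifi203, chr1:173942443-173942742, - strand: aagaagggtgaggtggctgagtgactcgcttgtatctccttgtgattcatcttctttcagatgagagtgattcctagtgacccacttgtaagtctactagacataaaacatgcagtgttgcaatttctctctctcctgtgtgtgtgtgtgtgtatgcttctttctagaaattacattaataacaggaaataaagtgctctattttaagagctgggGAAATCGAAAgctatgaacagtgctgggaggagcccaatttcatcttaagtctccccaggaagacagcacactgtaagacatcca
Ifitm3, chr7:141010695-141010994, - strand: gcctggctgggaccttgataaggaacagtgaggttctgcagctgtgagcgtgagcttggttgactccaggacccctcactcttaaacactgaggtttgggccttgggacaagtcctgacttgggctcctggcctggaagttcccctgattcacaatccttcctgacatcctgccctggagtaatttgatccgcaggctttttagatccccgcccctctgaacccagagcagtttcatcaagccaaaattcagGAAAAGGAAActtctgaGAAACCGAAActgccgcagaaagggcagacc
The Ddx60 and Ifitm3 windows hold 2 cores each and the Ifi203 window 1, so that a core stood in promoters of genes with either outcome. The chromosome that holds Iigp1 and the mitochondrial genome were left out of the search, so the promoter of Iigp1 was not searched. Elsewhere RefSeq gave a promoter for 28 of the 40 interferon-stimulated genes, and 17 of these (60.7%) held a core. Of all 27025 genes with a searched promoter 3.99% did. Of the genes called higher 6 of the 50 with a searched promoter held one (12%), and of those called lower 1 of 51 (1.96%).

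Uqcc2, Mrps28 and Snrpd2 were among the lower genes with the smallest p, and 5 nuclear oxidative phosphorylation genes were lower. Uqcc2, an assembly factor of respiratory complex III, was at 173, 183.5 and 164 CPM in 4 week MAC-1+ and at 358, 424 and 463 CPM in SS MAC-1low (log2 fold change -1.26, SE 0.18, adjusted p = 0.0177). Snrpd2, a core protein of the splicing snRNPs, was at 176, 186 and 175 CPM against 419, 487.5 and 430.5 CPM (adjusted p = 0.0277). Mrps28 and Mrpl41, proteins of the mitochondrial ribosome, fell by 1.32 and 1.41 on the log2 scale, and Dynll1, a dynein light chain, fell by 1.55. Siva1, Banf1, Fkbp2, Ndufa11 and Etfb, the other leading genes, fell by 1.02 to 1.91. Of the 36 tested nuclear oxidative phosphorylation genes 5 passed, all lower, against 0.834% of all tested genes lower on adjusted p alone, and 13 of the 36 were lower at an unadjusted p below 0.05, where 6.33% of all genes were. Uqcrq, a subunit of complex III, was at 277, 348 and 275.5 CPM against 594, 540 and 614 CPM (log2 fold change -0.96, SE 0.15, adjusted p = 0.0247). Ndufa2, Ndufa8 and Ndufb8 of complex I and Atp5o of the ATP synthase fell by 0.78 to 0.97 on the log2 scale. The list's median was -0.33. Its genes are short, with a median exon length of 2101 bases, and 1 of the 36, Uqcrq, passed with the offset, where the median was -0.23. The 12 tested genes of the mitochondrial genome went the other way, with a median of 0.62 and 0 passing by edgeR, and 5 were higher at an unadjusted p below 0.05. The part of length and GC content in these differences was not tested beyond that offset.

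Among S phase genes Tyms and Gmnn were lower. Tyms, which makes thymidylate, was at 88.4, 74.5 and 67.4 CPM against 269, 357 and 280.5 CPM (log2 fold change -1.98, SE 0.39, adjusted p = 0.0469). Gmnn, the inhibitor of origin licensing, was at 156, 78.6 and 45.6 CPM against 311, 215.5 and 254 CPM (adjusted p = 0.0813). They were the 2 of 34 S phase genes that passed, where 0.834% of all tested genes were lower, and the list's median was -0.49. Of the 36 G2 and mitosis genes 0 passed by edgeR, 5 were lower at an unadjusted p below 0.05, and the median was -0.50. Mki67, a marker of cycling cells, was at 268, 134 and 102 CPM against 165, 385 and 155 CPM, and its populations overlapped. Cdk6, the kinase that drives HSCs out of quiescence, was at 61.4, 93.8 and 44.5 CPM against 171, 282 and 153 CPM (log2 fold change -1.60, SE 0.33, adjusted p = 0.0523), and it passed with the offset (adjusted p = 0.0380), as did Tyms (adjusted p = 0.0509). Gmnn did not (adjusted p = 0.148). Srm, a polyamine enzyme and MYC target, was the 1 of 32 MYC and ribosome biogenesis genes that passed, at 30.5, 9.17 and 46.4 CPM against 115, 108 and 106 CPM, and it failed with the offset (adjusted p = 0.234). The median of that list was -0.59.

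Among HSC genes Socs2, Mecom, Ly6a and Hoxa9 were higher. Of the 12 HSC signature genes named by the study 3 passed, all higher, with a median of 0.80. These genes were chosen by the study on these libraries, so their count is not independent evidence of direction. Socs2, an inhibitor of cytokine signalling, was at 404.5, 227 and 305.5 CPM against 29.3, 106 and 116 CPM (log2 fold change 1.90, SE 0.42, adjusted p = 0.0664). Mecom, a transcription factor of HSC self-renewal, was at 475, 181.5 and 315 CPM against 102, 137 and 123 CPM (adjusted p = 0.0544). Ly6a, which encodes Sca1, was at 1413, 1076 and 690 CPM against 605, 305 and 370 CPM (adjusted p = 0.0967). No value of the 3 genes overlapped between the populations, and of the 3 Mecom failed with the offset (adjusted p = 0.118). Hlf, at 909.5, 499 and 594 CPM against 538, 237 and 291 CPM, and Procr, at 80.4, 63.3 and 107 CPM against 30.4, 64.3 and 55.9 CPM, did not pass. Hoxa9, a homeobox factor, was the 1 of 36 other HSC genes that passed, at 236, 320 and 206 CPM against 104, 69.5 and 89.5 CPM.

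**Figure D4:**
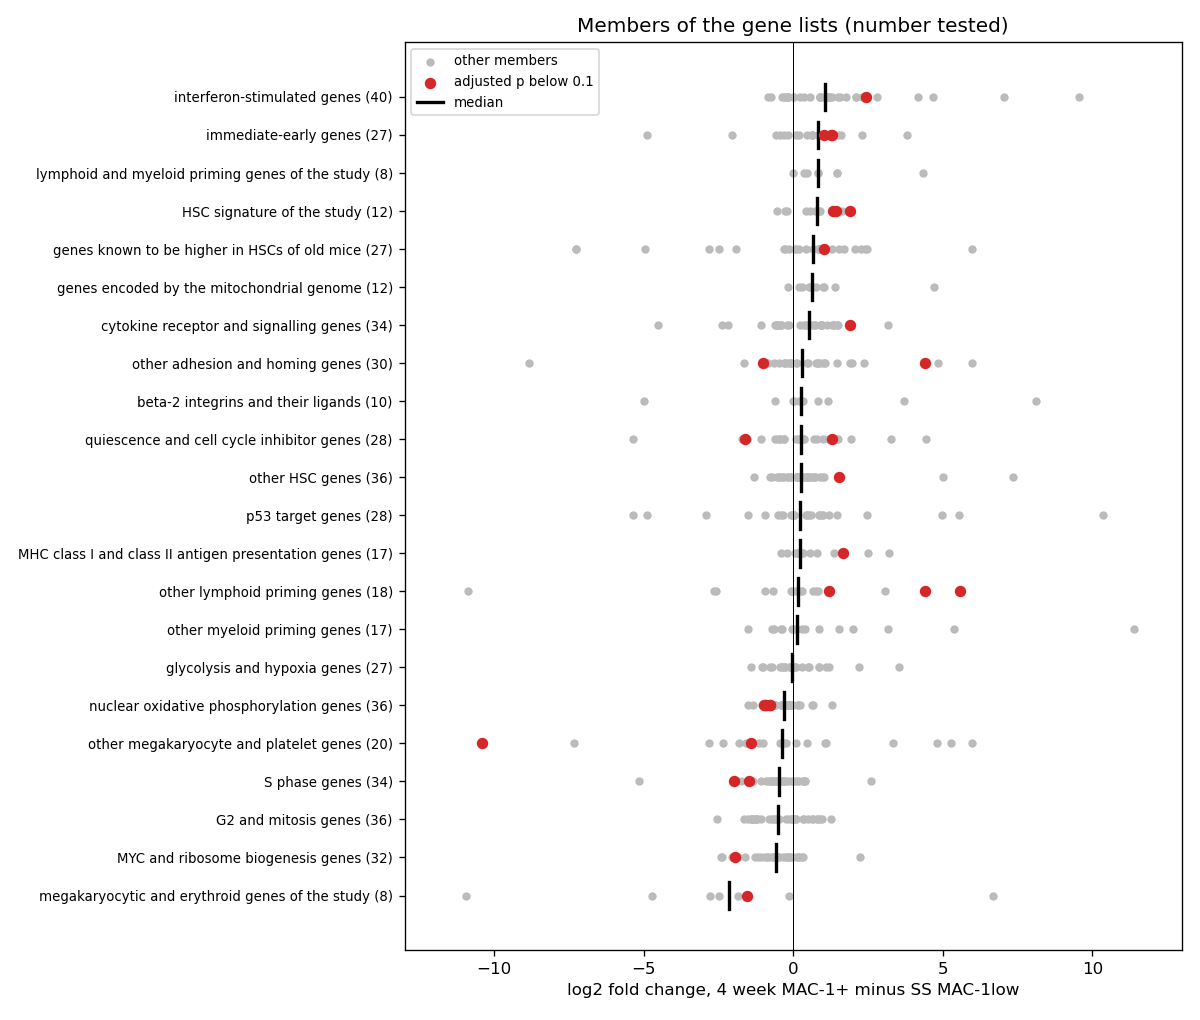
Log2 fold change, 4 week MAC-1+ minus SS MAC-1low, of each tested member of the gene lists, with the number tested in brackets. Red points passed an adjusted p of 0.1 and black bars are medians, which run from -2.16 for the megakaryocytic and erythroid genes of the study to 1.05 for the interferon-stimulated genes.

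Among megakaryocyte genes Pf4, Mmrn1 and Gp1bb were lower. Pf4, a platelet granule chemokine, was at 117, 113 and 160 CPM against 544, 251 and 340 CPM (log2 fold change -1.54, SE 0.37, adjusted p = 0.0905), and it failed in each of the 6 fits without a library. It was the 1 of 8 megakaryocytic and erythroid genes named by the study that passed, and the median of these was -2.16, again for a list chosen on these libraries. Of the 20 other megakaryocyte and platelet genes tested 2 passed, both lower, with a median of -0.36. Mmrn1, a platelet protein, was at 87.7, 83.0 and 98.3 CPM against 206, 218 and 287.5 CPM (adjusted p = 0.0937). Gp1bb, a chain of the platelet receptor for von Willebrand factor, had 0 counts in all 4 week MAC-1+ libraries and was at 7.51, 18.3 and 0 CPM in SS MAC-1low. Against the floor of 3 counts per library it was at least 57.4-fold lower (adjusted p = 0.0582), and since SS MAC-1low replicate 3 was also at 0 the populations overlapped. Itga2b (CD41) was at 2.80, 2.51 and 6.96 CPM against 20.3, 25.9 and 21.9 CPM and missed the threshold (adjusted p = 0.122).

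Among the 18 tested lymphoid priming genes other than those of the study, Cd53 and Gimap6 passed and were higher. Cd53, a leukocyte tetraspanin, was at 667, 589 and 617 CPM against 15.8, 23.04 and 0 CPM (adjusted p = 0.0652). Gimap6, a GTPase of lymphocytes, was at 835, 686 and 615 CPM against 339, 269 and 318.5 CPM (adjusted p = 0.0957). Of the 8 lymphoid and myeloid priming genes of the study and of the 17 other myeloid priming genes 0 passed by edgeR, with 3 and 2 at an unadjusted p below 0.05. H2-Aa, an MHC class II chain, was the 1 of 17 antigen presentation genes that passed, at 265, 385 and 163 CPM against 95.6, 52.0 and 111 CPM. Cd63, a tetraspanin of late endosomes, was at 327, 414 and 436 CPM against 835, 657 and 856 CPM (adjusted p = 0.0653). Cd63 was the 1 lower of 30 other adhesion and homing genes. Egr1 was the 1 higher and Cdk6 the 1 lower of 28 genes in the list of quiescence and cell cycle inhibitor genes. That list also holds genes that drive the cycle, Cdk6 among them, so its name does not describe each member. Socs2 was the 1 of 34 cytokine receptor and signalling genes that passed, and Jun the 1 of 27 genes known to be higher in HSCs of old mice, with list medians of 0.53 and 0.65. In glycolysis and hypoxia genes (27 tested) and p53 targets (28 tested) 0 passed by edgeR, with 2 and 1 at an unadjusted p below 0.05.

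Markers of neutrophils varied between the 4 week MAC-1+ libraries. The summed level of the 15 marker genes was 167, 976 and 7079 CPM in replicates 1, 2 and 3, and 135 to 170 CPM in SS MAC-1low. S100a9, a calcium-binding protein of neutrophils, was at 40.3, 207 and 1584 CPM against 44.3, 23.2 and 46.8 CPM, and although it passed (adjusted p = 0.0967) its populations overlapped and replicate 3 held most of it. Ly6g had 0, 1 and 1 counts and Fpr1 was at 0 in all 6 libraries. Summed NK and T cell markers ran from 16.2 to 176 CPM against 229 to 242 CPM, with 7 of the 16 genes at 0 in all 6 libraries. Nkg7 was by far the largest part of this sum in each library, at 16, 43.59 and 175.9 CPM against 210.2, 242.4 and 232.1 CPM. The sum therefore follows Nkg7 and is not read as a content of NK or T cells. B cell markers ran from 16.8 to 119 CPM against 7.27 to 170 CPM, and those of basophils and mast cells from 0.691 to 58.1 CPM against 3.76 to 48.8 CPM. Erythroblast markers ran from 1880 to 2371 CPM against 1948 to 2743 CPM, although Hbb-bt, a beta globin, passed at 95.6, 90.1 and 69.6 CPM against 26.7, 18.3 and 29.6 CPM. Monocyte and macrophage markers ran from 829.5 to 988 CPM against 845 to 958 CPM, but Lyz2 was the largest part of this sum. Lyz2 was at 436, 462 and 594 CPM against 625, 635 and 693 CPM. Ly6c2 was at 0.190, 0 and 108 CPM against 0 CPM in each SS MAC-1low library. Ms4a6c was at 282, 253 and 143 CPM against 17.9, 21.7 and 97.5 CPM. Of the 5 monocyte and macrophage genes tested 2 had positive and 3 negative log2 fold changes, and 0 passed by edgeR. The part of all these markers in the results above was not tested, and without replicate 3 of 4 week MAC-1+, 64 genes were called.

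The 139 called genes were then followed in libraries the comparison had not used. Between 4 week MAC-1low and SS MAC-1-, 59 of the 75 higher genes (78.7%) and 55 of the 64 lower genes (85.9%) had the same sign, where 50.6% and 49.2% of all tested genes had that sign. Their median log2 fold changes were 0.38 and -0.50, and 4 and 1 of them passed on adjusted p, as did 0.0878% and 0.102% of all tested genes (12 and 14) in these directions. This pair differs in MAC-1 level as well as in state. Genes shorter than the median took 59.45% to 63.2% of counts on tested genes in 4 week MAC-1low and 62.6% to 64.9% in SS MAC-1-. With the offset for GC content and length, 84.9% of the calls had the same sign. The part of length and GC content in this agreement was not tested beyond that offset. Between 4 week MAC-1- and SS MAC-1-, 33 of the 75 (44.0%) and 29 of the 64 (45.3%) had the same sign, beside 48.1% and 51.3% of all genes. The medians were -0.18 and 0.07. Of the 75 higher genes 4 passed here in the same direction and 1 in the opposite one. Of the 64 lower genes 0 passed in the same direction and 1 in the opposite one. Among all 13661 tested genes 29 passed higher and 30 lower. Genes shorter than the median took 63.9% to 65.6% of counts on tested genes in 4 week MAC-1-.

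The change from SS MAC-1low to 4 week MAC-1+ was also tested directly against the change from SS MAC-1- to 4 week MAC-1-. This is called the difference of effects. By the labels the MAC-1- pair differs in state and not in MAC-1 level, while the other pair differs in both. By the paper's flow cytometry most SS HSCs lacked MAC-1, while most 4 week HSCs were MAC-1low. The MAC-1- gate thus took unlike shares of the HSCs in each state, and a batch that went with state would also enter this pair. In a gene that passes, the parts of state and MAC-1 level cannot be told apart. The difference passed on adjusted p for 58 genes in the higher and 63 in the lower direction, 0.425% and 0.461% of those tested and 0.886% in all. Of the 75 higher genes 27 passed in the higher direction, and of the 64 lower genes 21 in the lower, and 0 passed in the opposite one, though this test shares the 6 libraries that chose them. Mgst1, a microsomal glutathione transferase, was at 247, 310 and 308.5 CPM in 4 week MAC-1+ and 117, 129 and 152 CPM in SS MAC-1low, while the MAC-1- means were 171 CPM in SS and 38.5 CPM at 4 weeks. Its difference was 3.27 on the log2 scale (SE 0.44, adjusted p = 0.00595). Pf4 had a difference of -4.26 (SE 0.53, adjusted p = 0.00524), with a mean of 755 CPM in SS MAC-1- and 4957 CPM in 4 week MAC-1-. Slc25a5, the ADP/ATP carrier, Cenpw, a centromere protein, Cox8a, a subunit of cytochrome oxidase, and Uqcc2 had differences from -1.17 to -1.91.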

How the data were processed

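RNA of sorted HSCs was copied with SMART-Seq, which carries no molecular identifiers, and made into Nextera XT libraries. The authors deposited 1 table of raw read counts per gene, from STAR alignments in an nf-core workflow. Which counter, build and annotation it rests on is not given in the sources used here, while the submitters' processing notes name DESeq2. Libraries were grouped by their labels. One label describes transplantation for every sample, but the SS samples are also labelled untreated and were used as such.

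edgeR 4.0.16 (R 4.3.3) supplied TMM factors, the default filter on low counts and the robust quasi-likelihood test. The model held all 16 samples, with 11 residual degrees of freedom. Adjusted p are Benjamini-Hochberg values over 13661 genes of 46078. SE is the log2 fold change divided by the root of the F statistic. The thresholds were 0.1 for adjusted p and, for counts of calls but not for single genes, 1 for the size of the log2 fold change. Exon length and GC content came from GENCODE M21, which held 98.0% of the identifiers. DESeq2 1.42.0, limma 3.58.1 and other settings were alternatives. On simulated counts, edgeR, DESeq2 and limma recovered changed genes with the right sign, and DESeq2 called far more unchanged genes than the others. The simulated counts used edgeR's estimates of spread for genes that passed its filter, so they do not rank the tools. Plots used matplotlib 3.10.9. The floor is 3 counts and covers counting error only.

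The genes named are, per direction, the 10 with the smallest p past both thresholds, a mean of at least 50 normalized counts, no overlap and a gene symbol that is no placeholder; list members past the threshold; genes the study names; abundant members of lists; and up to 5 per direction in the difference of effects. Oasl2, Ddx60 and Ifi203 were chosen after their values were seen. The lists were chosen with earlier results of these data known. A list member that passed is not reported here.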

Additional observations from a re-analysis of the deposited data

Results flagged for a closer look

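Of 76 genes checked, 31 passed in the difference of effects at an adjusted p below 0.1 in edgeR's quasi-likelihood test. It sets the change from SS MAC-1low to 4 week MAC-1+ against that from SS MAC-1- to 4 week MAC-1-. MAC-1 level as well as state differs in the former pair, so their parts cannot be told apart. Of all 13661 tested genes 121 (0.886%) passed. Some of the 76 were named for a small p in this same test and others on the 6 libraries it shares, so their count is partly fixed by that choice. Values are that difference in log2 fold change. Among HSC genes it was Mecom 2.70, Hoxa9 2.29, Procr 4.27 and Hlf 3.21. Procr and Hlf did not pass between 4 week MAC-1+ and SS MAC-1low, and had log2 fold changes of -3.53 and -2.30 between 4 week MAC-1- and SS MAC-1-. Among genes of priming, antigen presentation and globin it was Gimap6 2.49, H2-Aa 2.79, Hbb-bt 2.68 and Spi1 3.59. Among the other genes in the higher direction it was Fos 1.65, Wfdc17 5.30, Epsti1 2.82, Arfgef1 2.11, Yipf3 6.12, Ubl3 3.19 and Mgst1 3.27.

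In the lower direction, megakaryocyte genes had Pf4 -4.26, Gp1bb -12.03 and Itga2b -4.45, where the value of Gp1bb depends on the prior count since 4 week MAC-1+ was at 0. Mitochondrial genes had Uqcc2 -1.56, Mrps28 -1.48, Mrpl41 -1.46, Etfb -1.51, Uqcrq -1.19, Slc25a5 -1.47 and Cox8a -1.17. Genes of the cell cycle had Tyms -2.56, Cdk6 -2.61 and Cenpw -1.91, and the remaining genes Siva1 -1.21, Banf1 -1.16 and Fkbp2 -2.45. In the 4 libraries of 4 week MAC-1low no total, number of detected genes or share of counts stood apart from the rest of its group (5 measures).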

How the results depend on the processing

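With all 139 calls (75 higher, 64 lower) as the base, DESeq2 gave 1066 (571 and 495), the 6 samples alone 1 (1 and 0), the offset for GC content and length 53 (30 and 23) and an adjusted p below 0.05 gave 38 (17 and 21). limma-voom gave 37 lower genes, and no fold threshold 114. In the fit of the 6 samples 1046 genes had an unadjusted p below 0.05. Without 1 library the calls ran from 6 to 75, with 2 to 37 higher and 4 to 38 lower. Apart from the replicate block, given next, the other settings stayed within 1.5 times, and every one of the 139 genes tested under a setting kept its direction. Among the fits without a library, fewest were left without SS MAC-1low replicate 2. Of the 139 calls 4 stayed past the threshold in all 6 fits without a library. The cause was not tested.

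The replicate number as a block gave 68 calls (34 and 34), 89.7% of them with the same sign between 4 week MAC-1low and SS MAC-1-, and 50 genes in the difference of effects. Between 4 week MAC-1+ and SS MAC-1low, replicates of the same number had r of 0.01, -0.02 and -0.01 across genes. For the 12 pairs of same-numbered libraries from different populations of 1 state r ran from -0.01 to 0.04. For the 30 pairs with unlike numbers it ran from -0.04 to 0.02. The pairs among the replicate 1 libraries at 4 weeks had the largest r of all, 0.035 to 0.040. By the names of the libraries, equal replicate numbers need not mark libraries handled together, and pairing by those names was not tested. The replicate 1 libraries of the 3 populations at 4 weeks had 9.15% to 9.62% of counts on mitochondrial genes, against 6.56% to 8.43% in the other 7 libraries, and the part of this in the difference of effects was not tested beyond the block.

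The share of calls with the same sign between 4 week MAC-1low and SS MAC-1- was 82.0%, 64.0% with DESeq2 and 74.5% to 100% without 1 library. Between 4 week MAC-1- and SS MAC-1- it was 44.6%, and 33.3% to 53.2% without 1 library. The difference of effects passed for 121 genes, 1271 with DESeq2 and 23 to 114 without 1 library.

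Of 1061 values of 76 genes under alternatives 755 kept their call or lack of one, 280 lost it, 12 gained it and 14 turned sign, all in 4 genes that did not pass. Cd86 was -0.023 and turned to 0.023 (DESeq2), 0.59 (limma-voom), 0.021 (DESeq2's size factors) and 0.0093 (6 samples), and ran from -2.22 to 0.53 without 1 library. Itgb2 turned to 0.25 in limma-voom and ran from -1.17 to 0.15 without 1 library. In the same fits Vwf ran from -0.93 to 0.20 and Ikzf1 from -0.10 to 0.58. Libraries from few cells can miss a low transcript whatever their depth.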
